A study of Homo sapiens with 15 samples.

Results

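The 154 nuclear genes for the transfer RNAs (tRNAs) of glycine, glutamate, aspartate, valine, lysine and histidine were followed through 15 small RNA libraries. They were taken by name from a table of 50037 genes, as every gene whose name begins with TRG, TRE, TRD, TRV, TRK or TRH and a hyphen and goes on with the anticodon, mitochondrial genes left out. The name gives the amino acid as a single letter, the 3 bases of the anticodon, a family number and a copy number. By the naming convention, genes with the same family number have the same mature sequence. The rule used no measured value.

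A tRNA carries its amino acid to the ribosome and reads the codon with the anticodon in the middle of the molecule. tRNA genes are short and are transcribed by RNA polymerase III from a promoter that lies inside the gene, and many exist in several identical copies. Under oxidative and other stress, ribonucleases such as angiogenin cut mature tRNAs in the anticodon loop, and fragments from the tRNAs of these amino acids are among those most often described. A count per gene does not tell such a fragment from another fragment or from a full-length tRNA.

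The libraries came from cells labelled HEK-293, an established line from human embryonic kidney, with genotype WT, while the title of the series speaks of macrophages. For 18 h the cells received very low-density lipoprotein (VLDL group, with titles that read pcDNA:VLDL and do not say what pcDNA was), or the lipid hydrolysis products that lipoprotein lipase (LPL) releases from VLDL (LPL:VLDL group). The remaining cells received these products with GKT136901 at 20 µM, which inhibits NOX1 and NOX4, enzymes that make reactive oxygen species from NADPH (GKT136901 group). Each group had 5 libraries, and replicates 1 to 5 were experiments 2 to 6 by the batch label, so each experiment gave 1 library to each group. No library from medium alone is among the 15, and the labels do not say whether the experiments used separate passages, so the p-values reflect library-to-library spread, some of which may be technical.

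The HEK-293 label was checked against markers. Of 18 genes known for HEK-293 and renal progenitor cells, 10 had a count, 299 counts in all. They were led by HOXA9 with 127, CKB with 75 and GAL with 54. LIN28B, NEFM, INA, LHX1, EMX2, HOXC10, SALL1 and SIX4 were at 0. Of 18 myeloid genes, 17 had a count, 6451 in all, led by CSF1R with 1771, ITGB2 with 1382 and SPP1 with 1316. Other myeloid genes were low, with 31 counts for CD14, 30 for LYZ, 4 for MRC1, 3 for CD163 and 1 for FCGR3A. AIF1 was at 0. Of 10 RNAs of blood and liver that serum or lipoprotein could carry, all were at 0. Reads placed at several sites or over several genes were not counted, so these zeros do not show that such RNA was absent. The data therefore gave little signal for the labelled line, and the cells are called by their label only. Total counts ran from 5076917 to 9757123 per library, and the lowest was GKT136901 replicate 2.

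Sequences are shown for members whose counts bear on how identical copies were measured. The files given here held the full sequence of 12 of the 154 genes, none of them for aspartate, on the GRCh38 build, from RefSeq promoter windows (GRCh38.p14) or from GENCODE transcripts. Each is written 5′ to 3′ as the gene's DNA strand, with the anticodon in capitals. The first group is the histidine family TRH-GTG1, of which TRH-GTG1-3 on chromosome 1 and TRH-GTG1-7, TRH-GTG1-8 and TRH-GTG1-9 on chromosome 15 had the same 72 bases.
TRH-GTG1-9: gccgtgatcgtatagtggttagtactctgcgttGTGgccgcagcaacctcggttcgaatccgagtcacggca
The second is a pair of glutamate families, which differed by T65C, with the base of TRE-TTC4-1 first and positions counted from 1 at the 5′ end.
TRE-TTC4-1: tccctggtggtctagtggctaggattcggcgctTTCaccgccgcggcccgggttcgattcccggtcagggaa
TRE-TTC3-1: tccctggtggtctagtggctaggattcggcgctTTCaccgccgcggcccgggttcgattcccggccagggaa
The glycine gene TRG-GCC2-1 had the same 71 bases as TRG-GCC2-4, while TRG-CCC2-2 carried another anticodon and differed at 24 positions from them.
TRG-GCC2-1: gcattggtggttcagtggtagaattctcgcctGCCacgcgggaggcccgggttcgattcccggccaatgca
TRG-CCC2-2: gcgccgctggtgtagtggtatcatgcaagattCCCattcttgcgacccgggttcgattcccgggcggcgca
The valine gene TRV-CAC1-1 belongs to the family of the most counted member, and TRK-CTT3-1 is the only gene of its family.
TRV-CAC1-1: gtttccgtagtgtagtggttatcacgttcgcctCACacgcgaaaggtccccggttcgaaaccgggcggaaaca
TRK-CTT3-1: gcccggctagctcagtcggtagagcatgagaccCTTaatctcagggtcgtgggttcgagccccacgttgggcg
All 12 sequences held the letters GGTTCGA of the B box, the inner promoter element bound by TFIIIC, starting at position 50 to 52. Of the first 72 bases of all RefSeq promoter windows, searched on both strands, 0.205% held these letters (72 of 35116). Several of the 12 were identical copies and all were tRNA genes, so finding the letters was a description and not a test.

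Of the 154 members, 122 lie on the reference chromosomes and 32 on alternate or patch sequences, and their length was 71 to 73 bases. Counts were found for 87 of them, and 67 had none in any library. The members held 402242 counts, 0.303% of all counts in the table and 39.0% of those of nuclear tRNAs. The 491 nuclear tRNA genes of other amino acids held 0.475% of all counts. The plot of ranked totals shows how unequal the members were.

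**Figure D1:**
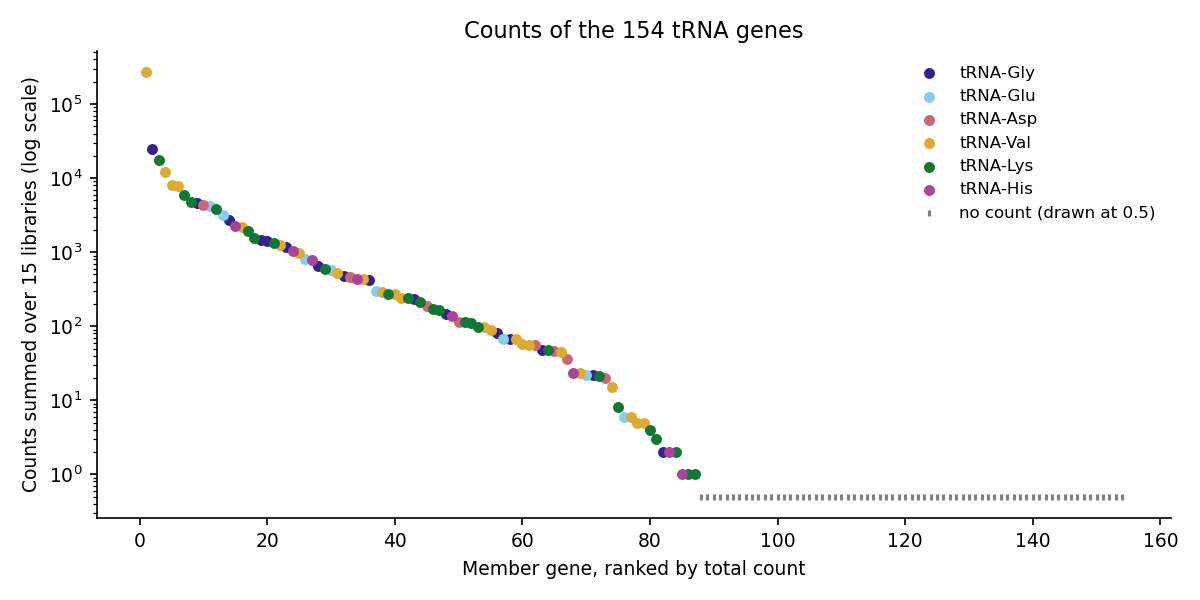
Counts summed over 15 libraries (log scale) of the 154 genes, ranked from the highest, coloured by amino acid. TRV-CAC1-4 stands first with 271162 counts, TRG-CCC6-1 second with 24810, and the 67 genes without a count are drawn as grey ticks at 0.5.

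Valine tRNA genes held most of the member counts. The 36 valine genes had 305929 counts, 76.1% of the members' total, and TRV-CAC1-4 alone had 88.6% of these. The 40 lysine genes held 9.64%, the 33 glycine genes 9.55%, the 23 glutamate genes 2.28%, the 13 aspartate genes 1.3% and the 9 histidine genes 1.17%. A single gene also led glycine, where TRG-CCC6-1 had 64.6% of the counts, and aspartate, where TRD-GTC1-1 had 82.4%. In glutamate the first gene, TRE-TTC2-1, had 46.1%, in histidine TRH-GTG1-9 had 48.5% and in lysine TRK-TTT3-1 had 45.2%.

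Copies that the sequences show to be identical had very different counts. TRH-GTG1-9 had 2286 counts, TRH-GTG1-7 had 1041, TRH-GTG1-8 had 787 and TRH-GTG1-3 had 2. A read that lies wholly within such a sequence matches every copy, and by the file headers reads placed at several sites were not counted. The counts of a copy can therefore come only from reads that the aligner placed at 1 site, and whether these held flanking or differing bases was not tested. In the valine family TRV-CAC1, 4 of 8 genes had a count, 271162 in TRV-CAC1-4 and 97 in the next, TRV-CAC1-1, whose sequence is shown above. TRE-TTC4-1 and TRE-TTC3-1 had 0 counts each, and TRE-TTC4-2, with the same bases as TRE-TTC4-1, had 6. TRG-GCC2-1 and TRG-GCC2-4 also had 0 each. Members without a count are thus not shown to be silent.

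The genes with a count can be set beside the number of copies of a gene. On the reference chromosomes, 34 of the 42 genes that are alone in their family (81.0%) had a count, against 48 of the 80 that share a family name (60.0%). Of the 11 reference genes that are listed again on an alternate or patch sequence, 1 had a count. Of the 32 genes on such sequences, 5 had one. A read shared by exons of different genes was left out too, and of the 11 members that overlap an exon of another gene 1 had a count, against 86 of the other 143. TRG-GCC2-1 overlaps an exon of FCGR2A and TRE-TTC4-1 an exon of LINC01783, and both had 0 counts. These are descriptions of the table and not of transcription.

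The most counted members lie on several chromosomes of GRCh38.p14, the assembly in the file header. TRV-CAC1-4 lies at chr5:181173650-181173722 on the plus strand, outside any other annotated gene, and chromosome 5 held 70.8% of member counts. TRG-CCC6-1 lies at chr1:121016845-121016915 on the minus strand, within the span of the pseudogene PDE4DIPP4 but in none of its exons. TRK-TTT3-1 lies at chr1:204506527-204506599 on the plus strand, outside other genes. TRE-TTC2-1 at chr13:44917927-44917998 and TRD-GTC1-1 at chr12:98503503-98503574 lie within the spans of LOC107984619 and LINC02453, in no exon of either. TRH-GTG1-9 lies at chr15:45201151-45201222 on the plus strand, outside other genes. Of the 122 reference members, 34 lie within the span of another gene and 25 of these touch no exon there.

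Levels are given in CPM, counts relative to the library's total after scaling by edgeR's TMM factors, which set the bulk of genes in each library to a like level. TRV-CAC1-4, which reads a valine codon, averaged 1948 CPM ± 653 in the VLDL group, 2238 ± 827 in the LPL:VLDL group and 2097 ± 877 in the GKT136901 group (SD, n = 5 each). Per 100 bases of gene length its mean over 15 libraries was 2869 CPM, against 275 for TRG-CCC6-1, 185 for TRK-TTT3-1, 44.2 for TRE-TTC2-1, 42.1 for TRD-GTC1-1 and 24.5 for TRH-GTG1-9. The first of these was thus apart from the rest, while TRE-TTC2-1 and TRD-GTC1-1 differed by less than their spread over libraries. Summed per anticodon, Val-CAC had a mean of 2107 CPM, Gly-CCC 238 CPM, Lys-TTT 235 CPM, Val-AAC 173 CPM and Val-TAC 82.1 CPM. Glu-TTC had 66.9 CPM, Lys-CTT 64.2 CPM, Gly-TCC 37.3 CPM, Asp-GTC 37.2 CPM, His-GTG 36.2 CPM, Gly-GCC 26.1 CPM and Glu-CTC 2.90 CPM. Neighbours in this order from Gly-CCC to Lys-TTT, from Glu-TTC to Lys-CTT, and from Gly-TCC to His-GTG lay well within their SDs. Glu-CTC and Gly-GCC, whose tRNAs are often described as sources of fragments, stood last, and of their 14 and 13 genes only 3 and 5 had a count. The family TRE-CTC1 held 320 counts over 13 genes, and TRG-GCC1 held 0 over 5. Reads placed at several sites were not counted, so this order does not show which tRNAs were scarce.

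**Figure D2:**
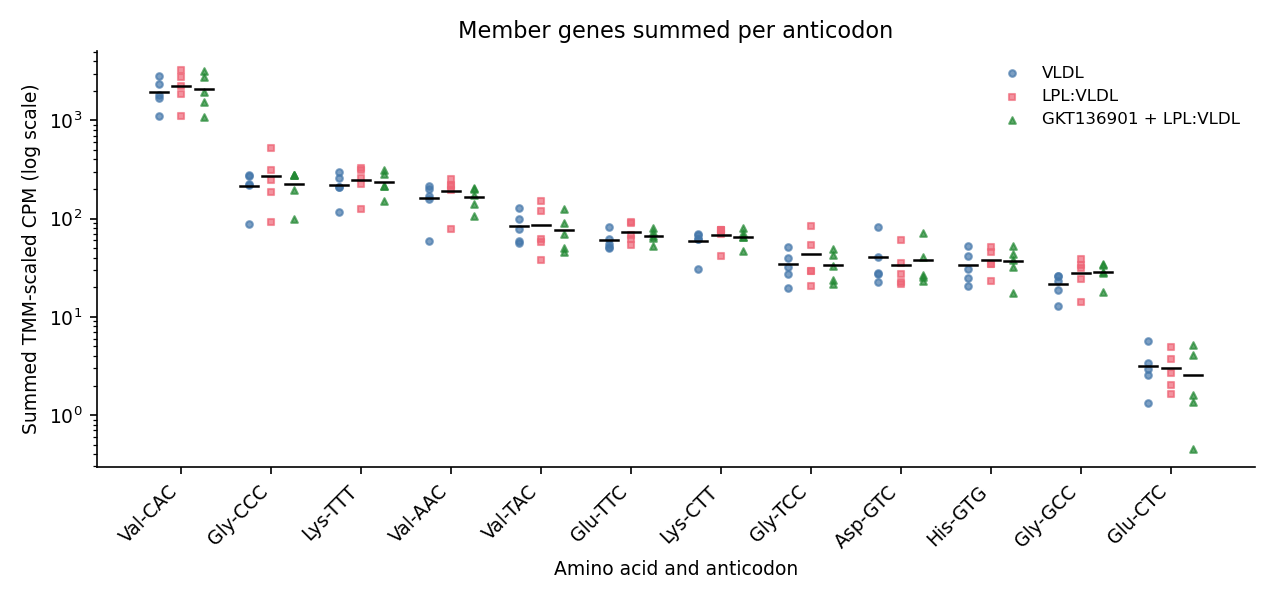
Member genes summed per anticodon, in TMM-scaled CPM on a log scale, with 1 point per library and a bar at each group's mean. Val-CAC lies about 1 order of magnitude above the next anticodons, Glu-CTC lies lowest with a mean of 2.90 CPM, and the 3 treatment groups overlap at each anticodon.

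Members differed between experiments. Of the 51 members with enough counts to be tested, 26 differed between the 5 experiments at an adjusted p under 0.05 (edgeR's quasi-likelihood test of the experiment terms, Benjamini-Hochberg over all 4099 genes tested, treatment group in the model). Of all genes tested, 11.1% were called, against 51.0% of the members and 45.5% of the 112 other nuclear tRNAs. By amino acid these were 8 of 11 glycine, 4 of 5 glutamate, 1 of 4 aspartate, 6 of 12 valine, 6 of 14 lysine and 1 of 5 histidine genes. Summed per anticodon, 11 of 12 were called, with Glu-CTC the exception (adjusted p = 0.207), and so were 24 of the 35 anticodons of other amino acids. The 36 members that had a count but were too low to test held 1 to 110 counts each, and those tested held 99.7% of the members' counts. The shares called were not set beside genes of like count, and the part of count level in them was not tested.

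Experiment 2 was lowest for most of the called members. In 22 of the 26 the mean of its 3 libraries was the lowest of the 5 experiments, and in 1 it was the highest. Of the 455 genes called among all 4099, experiment 2 was lowest in 220 and highest in 111 (5.37% and 2.71% of all genes tested). Of the 51 called other nuclear tRNAs it was lowest in 42 and highest in 1. TRV-CAC1-4 had 1100 CPM in the VLDL library of experiment 2, 1113 with LPL:VLDL and 1065 with GKT136901. It had 2800.5, 2749 and 2768 CPM in experiment 3, in the same order, then 2360 CPM, 3268 and 3197 in experiment 4, 1787, 2205 and 1922 CPM in experiment 5, and 1691, 1855 and 1533 CPM in experiment 6. All 3 libraries of experiment 2 lay below the other 12, with a 2.69-fold span between the lowest and highest experiment means (adjusted p = 1.0e-08).

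Glycine genes spanned a wide range too. TRG-CCC2-2, whose sequence is given above, had 10.1, 15.1 and 10.7 CPM in experiment 2 and from 27.9 to 60.0 CPM in the other 12 libraries, a 4.39-fold span of means (adjusted p = 5.1e-08). TRG-CCC6-1 had 74.9, 73.3 and 80.7 CPM in experiment 2 and 139 to 453 CPM elsewhere, a 3.92-fold span (adjusted p = 3.1e-07). The highest value of each gene was the LPL:VLDL library of experiment 3. TRG-TCC1-1, a glycine gene with another anticodon, had a 4.50-fold span (adjusted p = 5.3e-06). The lysine gene TRK-TTT3-1, of the isoacceptor that primes reverse transcription in HIV, had 75.9, 72.3 and 90.0 CPM in experiment 2 and 123 to 175 CPM elsewhere (adjusted p = 2.4e-05).

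TRD-GTC1-1 went the other way. This aspartate gene had 67.3, 56.7 and 67.2 CPM in the 3 libraries of experiment 2 and 15.4 to 31.8 CPM in the other 12, a 3.68-fold span between experiments 2 and 6 (adjusted p = 1.9e-07). It was the only tested member whose libraries of experiment 2 all lay above the others, which 3.32% of all genes did. TRD-GTC3-1, the next aspartate gene, had 12.5 CPM in the VLDL library of experiment 2, but 2.17 and 1.86 CPM in the other two libraries of that experiment, and was not called.

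**Figure D3:**
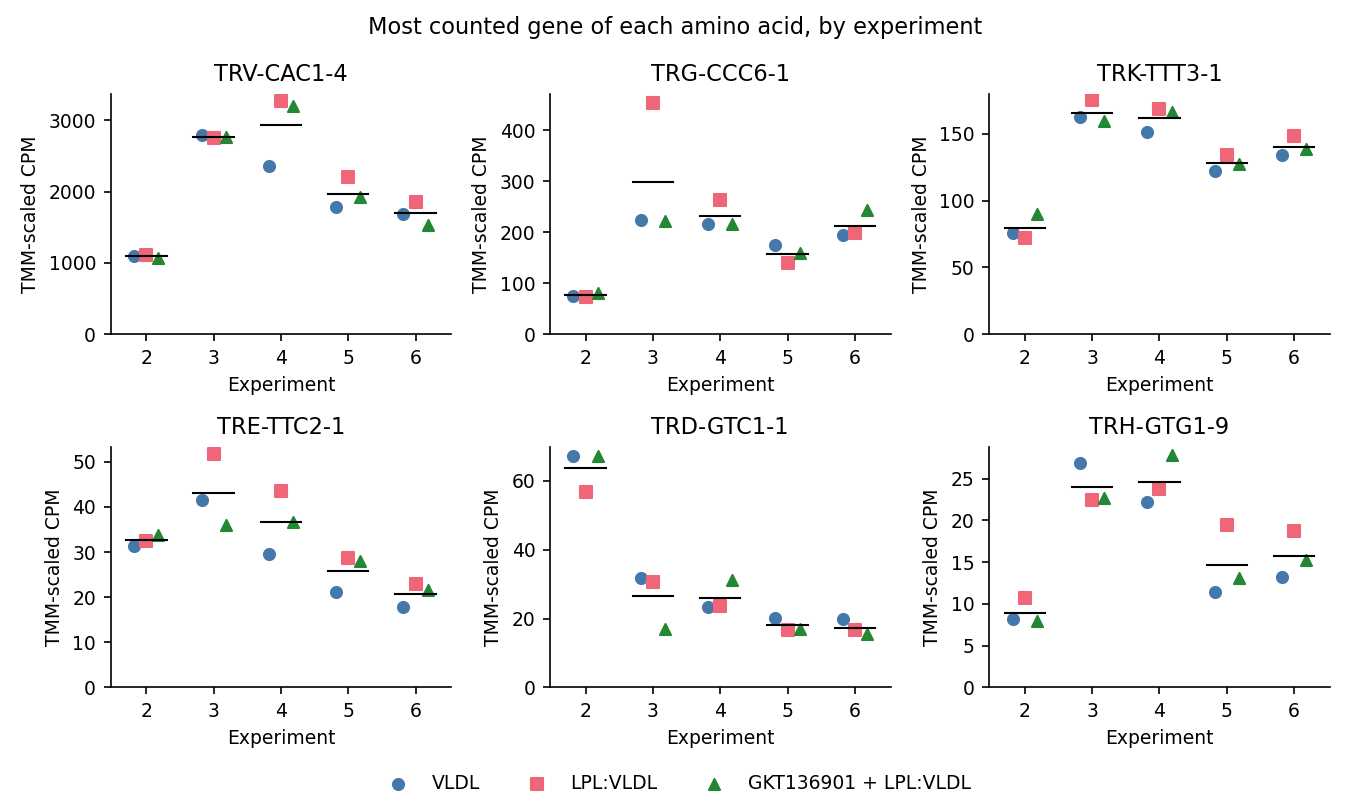
TMM-scaled CPM of the most counted gene of each amino acid by experiment, with 1 point per library shaped and coloured by treatment and a line at the mean of 3 libraries. TRV-CAC1-4 has 1065 to 1113 CPM in experiment 2 and at least 1533 CPM in all others, while TRD-GTC1-1 has 56.7 to 67.3 CPM in experiment 2 and 31.8 CPM or less in the others.

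In 15 of the 51 members all 3 libraries of experiment 2 lay below all others, against 4.64% of all genes tested and 42 of the 112 other nuclear tRNAs. The TMM factors of these 3 libraries were 1.32, 1.34 and 1.16, and those of the other 12 were 0.765 to 1.03, so scaling lowers their CPM. On CPM of the library size alone the count was 6 of 51 (1.59% of all genes). With that scaling 19 of the 51 members were called between experiments, against 12.5% of all genes, and all 19 were among the 26. Of the 19, 12 had their lowest mean in experiment 2 and 2 their highest. Over all genes the split turned on that scale. Of the 514 genes called, experiment 2 was lowest in 96 and highest in 313 (2.34% and 7.64% of all genes tested). TRD-GTC1-1 remained highest in experiment 2 on that scale, at 88.2, 75.7 and 77.7 CPM against 13.8 to 32.0. For TRV-CAC1-4 the libraries then overlapped, with 1231 to 1485 CPM in experiment 2 and 1394 to 3271 elsewhere. Members took 0.198% to 0.223% of all counts in experiment 2 and 0.232% to 0.457% in the other 12 libraries.

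Other RNAs moved with experiment 2, in part depending on the scaling. The summed level of the 18 myeloid genes was 69.9 to 92.8 CPM in its 3 libraries and 27.98 to 54.8 in the other 12. Without TMM scaling it was 80.9 to 124 CPM against 26.7 to 54.0. The HEK-293 and renal list overlapped, with 1.49 to 3.41 CPM in experiment 2 and 1.27 to 3.72 elsewhere, and the blood and liver list was at 0 throughout. As unscaled shares, the 22 mitochondrial tRNA genes took 0.228% to 0.237% of all counts in experiment 2 and 0.0774% to 0.221% elsewhere. In TMM-scaled CPM their sum overlapped, at 1739 to 2054 in experiment 2 and 786 to 2255 elsewhere. The part of these RNAs in the members' differences was not tested, and in bulk RNA fewer cells of a type cannot be told apart from less RNA per cell.

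Differences also remained among the other 4 experiments. Without experiment 2, 8 of 53 tested members and 145 genes in all were called, against 26 of 51 members and 455 of 4099 genes with all experiments. Genes were filtered anew in that fit and the number tested is not given here, so no share of all genes is stated. All 8 were among the 26, and TRV-TAC3-1, TRV-TAC2-1 and TRV-CAC1-4 had the lowest adjusted p (1.3e-04, 4.1e-04 and 6.7e-04), followed by TRG-TCC1-1 with 0.0014 and TRE-TTC2-1 with 0.0035. TRV-TAC3-1 had 21.0 to 38.9 CPM in the 6 libraries of experiments 3 and 4, and 8.32 to 14.8 CPM in the 6 of experiments 5 and 6. In 12 of 51 members every library of experiments 3 and 4 lay above every library of experiments 5 and 6, against 3.15% of all genes, and in 0 they lay below, against 1.24%. Of the 112 other nuclear tRNAs 18 lay above and 1 below, and of 14 tested mitochondrial tRNAs 4 lay above and 0 below. TRV-AAC1-1 and TRV-AAC2-1, valine genes with the anticodon AAC, had their highest mean in experiment 5 instead.

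**Figure D4:**
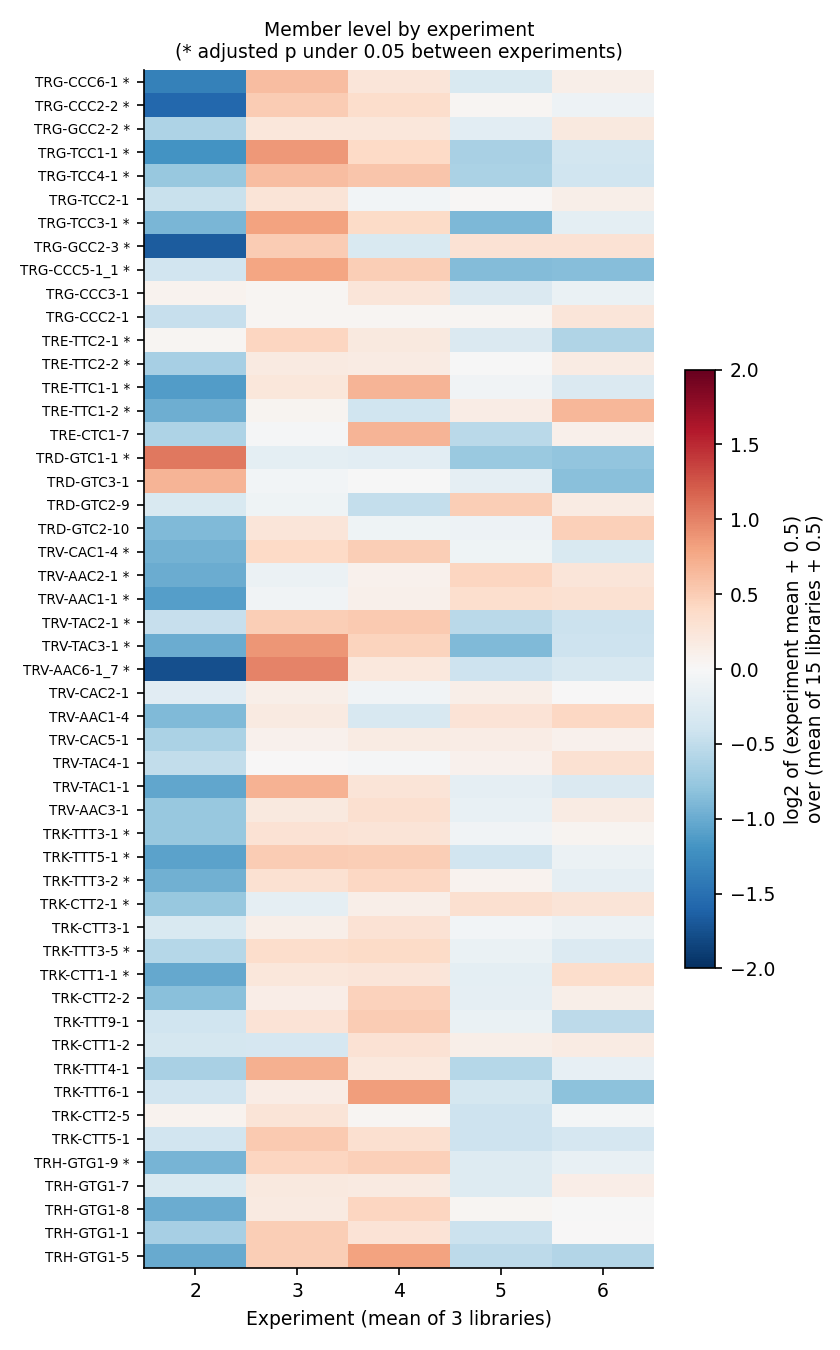
Level of each of the 51 tested members in experiments 2 to 6, as the log2 of the experiment mean over the mean of 15 libraries (0.5 added to each), ordered by amino acid and then by level, with an asterisk at the 26 called genes. The column of experiment 2 is mostly blue (lower), with TRD-GTC1-1 the darkest red (higher) cell there.

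The first treatment comparison asks how the products of LPL differ in effect from VLDL itself. No member was called (0 of 51), as was 0% of all 4099 genes, by edgeR's quasi-likelihood test without the experiment. With the experiment as a block 0 members and 1 gene in all (0.0244%) were called. At an unadjusted p under 0.05 there were 2 members (1.88% of all genes), and 8 with the block (4.20% of all genes), 7 of them higher and 1 lower. Most members had a higher fitted level with LPL:VLDL, 42 of 51 with a median log2 difference of 0.19, against 50.7% of all genes and a median of 0.01. The other nuclear tRNAs had 74 of 112 above 0 and a median of 0.17.

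That shift depended on scaling and, in the fit without the block, on single libraries. With library size alone the members' median was 0.03 with 30 of 51 above 0, and the median of all genes moved to -0.11, so the members stayed 0.15 above it. Without VLDL replicate 1, of experiment 2, the median was 0.05, without LPL:VLDL replicate 3 it was 0.07, and without LPL:VLDL replicate 2 it was 0.11. Each of these fits left 1 experiment without 1 of its groups. With the block and replicate 1, 2, 3, 4 or 5 left out of all groups, the median was 0.12, 0.13, 0.19, 0.20 and 0.19 in turn. Within experiments 2 to 6 the members' median difference was 0.05, 0.20, 0.18, 0.02 and 0.15.

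Of the members, the valine gene TRV-AAC1-1 had the lowest p with the block. It had 16.2, 60.9, 58.3, 68.9 and 65.8 CPM in the VLDL libraries of experiments 2 to 6, and 36.6, 71.7, 82.4, 94.9 and 97.1 CPM with LPL:VLDL. It was higher in 5 of 5 experiments, though the groups overlap, with a log2 difference of 0.50 (SE 0.32, adjusted p = 0.999) and with the block of 0.56 (SE 0.15, adjusted p = 0.673). DESeq2 with the block, an alternative added after the data were seen, called it (log2 difference 0.55, adjusted p = 0.0286). In all, 6 members were higher in 5 of 5 experiments (3.44% of all genes) and 1 was lower in 5 of 5 (3.46%).

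TRG-GCC2-2, a glycine gene within the span of GPD2 but in none of its exons, had 11.1, 16.8, 20.4, 14.5 and 21.4 CPM with VLDL and 12.8, 29.4, 30.1, 16.4 and 23.2 CPM with LPL:VLDL. It too was higher in each experiment, with a log2 difference of 0.41 (SE 0.28, adjusted p = 0.999) and overlapping groups. TRG-CCC2-2 was higher in 5 of 5 as well, by 0.38 on the log2 scale with the block (SE 0.15, adjusted p = 0.988). The 2 members with the lowest unadjusted p had few counts. TRG-CCC2-1, with 145 counts in all, had 0.439, 1.94, 1.78, 1.13 and 2.05 CPM with VLDL and 0, 0.693, 0.579, 0 and 0.402 CPM with LPL:VLDL, a log2 difference of -2.14 (SE 0.82, adjusted p = 0.999). It lay lower in 5 of 5 experiments. TRD-GTC3-1 had a log2 difference of -1.15 (SE 0.52, adjusted p = 0.999), in which the 12.5 CPM of VLDL replicate 1 took part, and was lower in 3 of 5 experiments.

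The leading genes of each amino acid were not called. TRV-CAC1-4 had a log2 difference of 0.20 (SE 0.28), TRG-CCC6-1 of 0.35 (SE 0.35), TRK-TTT3-1 of 0.11 (SE 0.25), TRE-TTC2-1 of 0.34 (SE 0.28), TRD-GTC1-1 of -0.17 (SE 0.41) and TRH-GTG1-9 of 0.21 (SE 0.35). By amino acid, 10 of 11 glycine genes lay above 0, 5 of 5 glutamate, 1 of 4 aspartate, 10 of 12 valine, 12 of 14 lysine and 4 of 5 histidine genes. Summed per anticodon, 10 of 12 lay above 0 and 0 were called with or without the block. The lowest blocked p among the sums was that of Gly-GCC, with a log2 difference of 0.35 (SE 0.16, adjusted p = 0.990).

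The second comparison adds GKT136901 to the LPL products and asks what NOX1/4 inhibition changes. It shares the LPL:VLDL libraries with the first, so they are not independent. No member was called (0 of 51, 0% of all genes, with and without the block), and 1 member had an unadjusted p under 0.05 (2.12% of all genes). The members' median log2 difference was -0.09 with 19 of 51 above 0, against -0.02 and 47.9% for all genes. With library size alone the median turned to 0.04 with 29 of 51 above 0, while the median of all genes was 0.06. Single libraries turned it as well, to 0.04 without LPL:VLDL replicate 2 (30 of 52 above 0) and to 0.06 without GKT136901 replicate 1 (30 of 53). Within experiments 2 to 6 the members' medians were 0.14, -0.39, 0.12, -0.0043 and -0.05, so the direction of this small shift differed between experiments and with the scaling.

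TRG-CCC2-1 had 1.55, 0.804, 1.08, 2.28 and 1.72 CPM in the GKT136901 libraries, all above its LPL:VLDL values of 0 to 0.693 CPM. The log2 difference was 2.18 (SE 0.82, adjusted p = 1.00), and 3.20% of all genes were higher in 5 of 5 experiments, as this gene was. TRD-GTC2-9, an aspartate gene with 186 counts in all, lay higher in 4 of 5 experiments, by 1.27 on the log2 scale (SE 0.68). TRV-AAC1-1 had 33.7, 46.0, 59.8, 72.4 and 69.2 CPM with GKT136901, lower than with LPL:VLDL in 5 of 5 experiments (3.32% of all genes), by -0.44 on the log2 scale (SE 0.32, adjusted p = 1.00). With the block the difference was -0.41 (SE 0.15, adjusted p = 1.00). TRV-AAC3-1 and TRV-CAC2-1, valine genes with 243 and 971 counts, had log2 differences of -0.76 (SE 0.53) and -0.43 (SE 0.30), each lower in 4 of 5. TRV-CAC1-4 had -0.09 (SE 0.28), and 2 of 12 anticodon sums lay above 0 with 0 called.

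**Figure D5:**
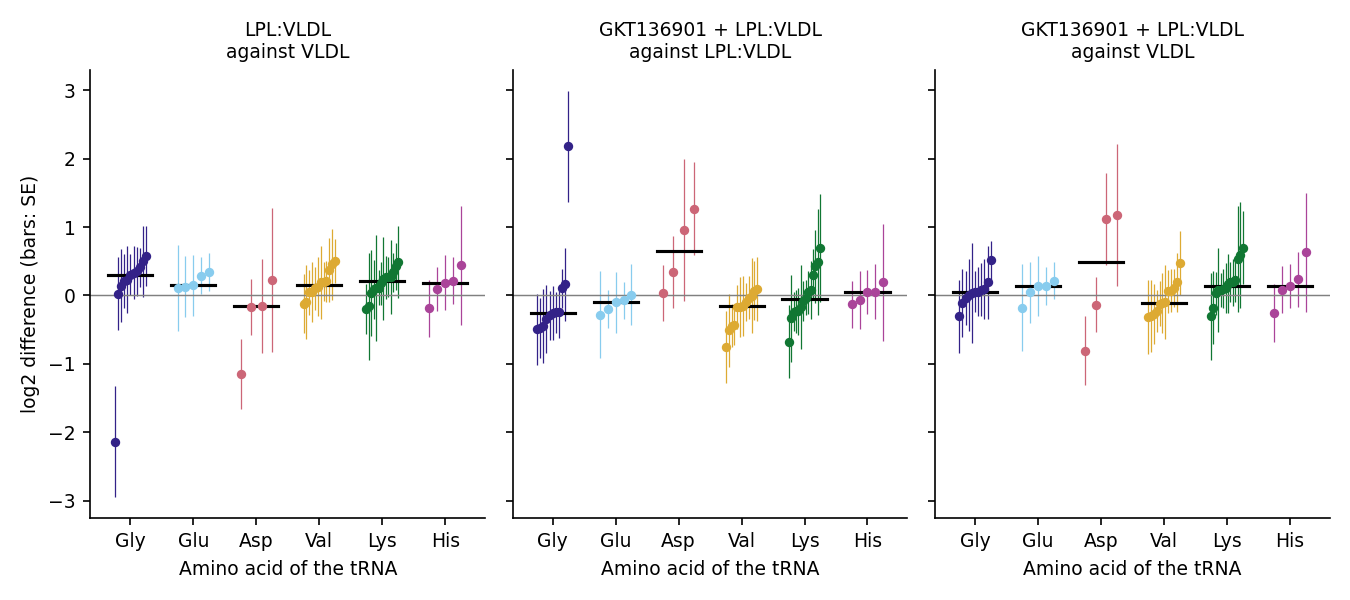
Log2 difference of each of the 51 tested members in the 3 comparisons, with 1 point per gene, its SE as a bar and a line at the median of each amino acid. In LPL:VLDL against VLDL 42 points lie above 0, the widest values belong to TRG-CCC2-1 at -2.14 and 2.18, and no gene was called.

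The third comparison sets the LPL products with GKT136901 against VLDL and shares libraries with each of the others. No member was called (0 of 51, 0% of all genes, with and without the block). At an unadjusted p under 0.05 there were 0 members (2.22% of all genes) and 1 with the block (4.32%). The members' median log2 difference was 0.08 with 35 of 51 above 0, against -0.00417 and 49.6% for all genes. Without VLDL replicate 1 and without the block it was -0.09. With the block and replicate 1, 2, 3, 4 or 5 left out of all groups, the median was 0.032, 0.172, 0.065, 0.105 and 0.103 in turn. TRG-GCC2-2 had 16.9, 27.9, 23.7, 23.5 and 28.2 CPM with GKT136901, above VLDL in 5 of 5 experiments, as were 4 members and 3.66% of all genes. Its log2 difference was 0.51 (SE 0.29, adjusted p = 0.999), and 0.53 with the block (SE 0.17, adjusted p = 0.997). TRD-GTC2-9 had a log2 difference of 1.12 (SE 0.67) and TRD-GTC3-1 of -0.81 (SE 0.51). In all, 1 member was lower in 5 of 5 experiments (3.73% of all genes). With the block the lysine gene TRK-TTT3-2 had a log2 difference of 0.27 and the valine genes TRV-TAC3-1 and TRV-AAC6-1_7 of -0.25 and -0.41, with adjusted p = 0.997 for each. TRV-CAC1-4 had 0.11 (SE 0.28) without it.

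Genes that make, trim, modify, cleave or charge tRNAs were mostly too low to test. An mRNA count in a small RNA library comes from a fragment, and why these counts were low was not tested. Of 63 such genes 56 had a count and 12 were tested. None was called in any comparison (0 of 12, by edgeR with and without the block), with 0, 0 and 1 at an unadjusted p under 0.05 in LPL:VLDL against VLDL, GKT136901 against LPL:VLDL and GKT136901 against VLDL. In that order 4, 10 and 6 of the 12 lay above 0. DICER1, the ribonuclease that makes miRNAs, had 139 counts in all and averaged 0.636 CPM ± 0.196 in the VLDL group, 0.830 ± 0.426 in the LPL:VLDL group and 1.68 ± 0.606 in the GKT136901 group (SD, n = 5 each). Its log2 difference of GKT136901 against VLDL was 1.38 (SE 0.66, adjusted p = 0.999). GTF3C4, a subunit of TFIIIC, had the lowest p in the other two comparisons, with log2 differences of -0.72 (SE 0.43) for LPL:VLDL against VLDL and 0.69 (SE 0.43) for GKT136901 against LPL:VLDL. Between experiments 1 of the 12 was called.

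The mitochondrial tRNAs of the same amino acids are encoded in the mitochondrial genome and made by another polymerase. TRNH, for histidine, had 24355 counts and averaged 171 CPM ± 50.4 in the VLDL group, 184 ± 58.4 in the LPL:VLDL group and 210 ± 61.8 in the GKT136901 group (SD, n = 5 each). TRNG, TRNE and TRNV had 210, 140 and 200 counts, TRND had 88 and was not tested, and TRNK was at 0. No treatment difference was called among the 4 tested (0 of 4, by edgeR with and without the block), and TRNH and TRNG differed between experiments (adjusted p = 2.1e-05 and 0.0270). TRNH had its highest means in experiments 3 and 4, at 259 and 237 CPM, and the means of experiments 2 and 6, at 142 CPM ± 33.2 and 144 ± 18.5 (SD, n = 3 each), were lower and within their spread of each other. Without TMM scaling experiment 2 stood at 179 CPM ± 28.2, and experiments 5 and 6 at 153 ± 4.92 and 130 ± 18.7.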

How the data were processed

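The authors deposited gene counts that were not normalized, with a column for each library. Per the file headers featureCounts 2.0.6 counted reads over the exons of each gene in the RefSeq annotation of GRCh38.p14, and no option was set for strand, for reads mapped to several sites or for overlaps. Reads placed at several sites or over several genes were therefore not counted, and sense and antisense reads cannot be told apart. The programs fastp 0.24.0 and STAR 2.7.11b and the build hg38 are named per the submitters' processing notes, which give no settings. Libraries were made with the NEBNext small RNA kit, per the labels' protocols.

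Genes were kept by filterByExpr (minimum count 10, minimum total 15), which left 4099 with 99.7% of the counts. They were scaled by TMM and tested with edgeR 4.0.16 (R 4.3.3) by the quasi-likelihood F test, two-sided, in 1 model of the 3 groups with 12 residual degrees of freedom, with Benjamini-Hochberg adjustment over all genes tested and a threshold of 0.05. Experiments were tested by their 4 terms together, with group in the model. A fit with experiment as a block had 8 residual degrees of freedom. The numbers pair the libraries because the batch label gives each number a shared experiment. Deviations from group means correlated at 0.0853 to 0.424 (median 0.131) in the 15 pairs with the same number. In the other 60 pairs they correlated at -0.164 to 0.170 (median -0.0811), so the ranges overlap. Over the 51 tested members the ranges were -0.0416 to 0.536 (median 0.303) and -0.516 to 0.519 (median -0.113). Deviations sum to 0 within a group, so same-number pairs above 0 push the others below it. Pairs of libraries within a group differed by more than sampling noise, with a chi-square of 8.59 to 167 for each degree of freedom. Alternatives used limma 3.58.1 (voom) and DESeq2 1.42.0 among others, and the scripts were tested on simulated data.

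Named are the 2 members of each amino acid with the highest mean level, the 2 higher and 2 lower with the lowest p in each comparison in either fit, and the 5 with the lowest p between experiments. Genes added because of their values are those described by copy, by span between experiments or by their call without experiment 2. The members and lists were chosen with earlier results of these data known. Depth limits precision: a gene at 0 in all libraries may reach 0.0226 CPM (3 counts), which covers counting error only.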

Additional observations from a re-analysis of the deposited data

Results flagged for a closer look

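Of 84 groups of 5 libraries checked for a value far from the rest, in which chance gives about 1 in 20, 3 held one. TRD-GTC1-1 had 67.3 CPM in VLDL replicate 1, of experiment 2, while the next highest VLDL library had 31.8 CPM. The other two libraries of experiment 2 were also high. TRV-AAC1-1 had 16.2 CPM in the same library, and the next lowest VLDL library had 58.3 CPM. TRV-AAC6-1_7, a valine gene on a patch sequence, had 36.2 CPM in LPL:VLDL replicate 2, of experiment 3, and the next highest LPL:VLDL library had 10.5 CPM. The causes were not tested.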

How the results depend on the processing

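With the experiment as a replicate block, 1 gene in all was called in LPL:VLDL against VLDL, and it changed no other count of calls by treatment. Blocked DESeq2 called 5 genes there, 1 of them a member, and 2 in GKT136901 against VLDL, while blocked limma voom called 2 and 1 (added after the data were seen). Leaving out replicates gave 0 to 2 called genes in the first comparison. The members' median log2 difference of LPL:VLDL against VLDL was 0.0346 with library size alone, 0.0315 with this and the block, and 0.0532 to 0.327 when single libraries were left out. That of GKT136901 against VLDL then ran from -0.0934 to 0.228. Those single-library fits had no block. With the block and a whole replicate left out, the 2 medians ran from 0.119 to 0.202 and from 0.0319 to 0.172. Of the genes named, 3 changed sign in GKT136901 against VLDL: TRK-TTT3-2 to -0.000561 without VLDL replicate 1 (highest 0.374 without another), TRV-TAC3-1 to 0.0198 without VLDL replicate 2 (lowest -0.506), and TRD-GTC3-1 to 0.139 with the block and without replicate 1. Between experiments 11 of 12 sums per anticodon were called, which have fewer features. Leaving out an experiment gave 145 to 460 called genes and 8 to 28 members, the lowest without experiment 2. Those fits filtered genes anew, so these are counts and not shares. The median of GKT136901 against LPL:VLDL turned from -0.0938 to 0.0424 with library size alone, to 0.0423 without LPL:VLDL replicate 2, to 0.0575 without GKT136901 replicate 1 and to 0.0287 with the block and without replicate 2, and was lowest at -0.270 without GKT136901 replicate 3. The remaining values kept their side of the threshold, or moved by less than their spread where they had no test. The causes were not tested. Low counts limit the 36 counted members that were not tested, and a p above the threshold does not show that levels were equal.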

Other observations

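A further 24 genes on alternate or patch sequences carry tRNA names of another form, such as TRNAV-CAC, and lie outside the naming rule. Of these, 10 are for the 6 amino acids, and they held 310 counts, of which TRNAV-CAC had 146 and TRNAG-CCC_2 had 142.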
